A study of Mus musculus with 8 samples.

Results

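The genes described here are 9 of the 49671 rows in a table of read counts from mouse liver. They were chosen by name, as the rows whose Ensembl identifiers belong to the symbols *Igkc*, *Ighm*, *Igha*, *Ighg1*, *Ighg2b*, *Jchain*, *Cd79a*, *Cd79b* and *Ms4a1*. The first 6 are immunoglobulin constant genes and *Jchain*, and the other 3 encode proteins of the B cell surface. All 9 were found in the table. Earlier results of these data were known when they were chosen, so shares among the 9 are descriptions and not tests. RNA came from livers of mice labelled C57BL/6 and taken after weaning. WT and NT-KO mice of both sexes gave 4 groups of 2 libraries. NT-KO mice are homozygous for a CRISPR/Cas9 deletion that removes the canonical translation start of *Lbr*, the gene of the lamin B receptor, in every cell of the animal. The mutant line goes back to a single founder male, crossed to C57BL/6N females, and the labels name no other allele or agent. Whether the 2 libraries of a group came from separate litters is not stated, so p-values measure the spread between these libraries.

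An antibody is built from heavy and light chains. In a B lymphocyte, a variable segment is joined to the constant gene of a heavy chain and another to that of a light chain, and the constant gene sets the class of the antibody. *Ighm* encodes the constant part of IgM, the class made first, *Igha* that of IgA, and *Ighg1* and *Ighg2b* those of IgG subclasses reached by class switching. *Igkc* is the constant gene of the kappa light chain, which most mouse antibodies carry. *Jchain* encodes the small protein that links IgM and IgA units into polymers and is made mainly by antibody-secreting cells. *Cd79a* and *Cd79b* encode the signalling partners of membrane antibody in the B cell receptor, and *Ms4a1* encodes CD20. These surface genes mark B cells and tend to fall, not always fully, when the cell becomes a plasma cell, whereas transcripts of the constant genes and *Jchain* become very abundant there. Hepatocytes make neither set, so both sets were compared here by sex and genotype.

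The libraries held 45020377 to 64396291 counts, so 1 count was worth 0.0155 to 0.0222 CPM, the usual unit of counts scaled to the size of the library. The trimmed mean of M-values (TMM) factors that scaled the CPM lay between 0.921 and 1.05. *Xist* had 41 to 136 counts in the male libraries and 50913 to 59845 in the female ones, and *Ddx3y* had up to 2546 in males and at most 3 in females, so the sexes matched the labels. *Lbr* had 277 to 453 counts in WT males, 627 and 714 in NT-KO males, 406 and 474 in WT females, and 744 and 918 in NT-KO females. The deletion does not remove most of the transcript, so these counts do not check the genotype. All 9 genes reached 1 CPM in at least 2 libraries and were among the 13117 genes tested. *Cd79a* and *Cd79b* reached it only in female libraries (both WT and 1 NT-KO) and *Igha* in both male NT-KO libraries and 1 of each female group.

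The constant genes of IgG resemble each other closely, and how reads that match several genes were counted is not stated. The opening 60 coding bases of the 4 IgG genes, on the minus strand of chromosome 12 in GRCm38, are shown as an example. How far apart these genes are varies along their length. Capitals mark bases that differ from *Ighg2b* at the same position.
Ighg2b, chr12:113307874-113307933: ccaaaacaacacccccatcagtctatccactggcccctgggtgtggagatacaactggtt
Ighg2c, chr12:113288873-113288932: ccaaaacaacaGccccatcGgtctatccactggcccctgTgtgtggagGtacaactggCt
Ighg1, chr12:113330464-113330523: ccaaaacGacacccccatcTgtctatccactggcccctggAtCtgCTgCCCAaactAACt
Ighg3, chr12:113361173-113361232: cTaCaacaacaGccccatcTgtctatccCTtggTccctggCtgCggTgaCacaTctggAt
*Ighg2c* differed from *Ighg2b* at 5 of these 60 bases, and *Ighg1* and *Ighg3* each at 13. The longest coding run that *Ighg2b* and *Ighg2c* share has 78 bases.
Ighg2b and Ighg2c, shared run: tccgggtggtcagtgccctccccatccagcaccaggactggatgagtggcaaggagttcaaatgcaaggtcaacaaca
Of all 50-base stretches in *Ighg2b* transcripts, 4.15% also occurred in another gene, against 0.393% for *Ighg1* and none for *Igkc*, *Ighm*, *Igha* and *Cd79b*. The share was 8.31% for *Cd79a*, all of it with the gene model *Gm32220*, 1.21% for *Ms4a1* and 0.288% for *Jchain*.

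*Igkc* (chr6:70726435-70726966, plus strand) had the highest level of the 9 genes per kilobase of exon in all 8 libraries. Its CPM was 3.19 and 7.43 in WT males, 32.1 and 17.6 in NT-KO males, 9.45 and 5.82 in WT females, and 4.52 and 3.70 in NT-KO females. Both male NT-KO libraries thus stood above every other library, and both female NT-KO libraries stood below both female WT libraries. In bulk tissue, fewer cells of a type and less RNA per cell cannot be told apart, and this holds for every level given here.

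*Ighm* (chr12:113418558-113422730, minus strand) had 4.95 and 2.61 CPM in WT males, 7.32 and 48.1 in NT-KO males, 13.6 and 14.7 in WT females, and 5.01 and 6.85 in NT-KO females. Male NT-KO lay above male WT and female NT-KO below female WT without overlap. The male NT-KO libraries were far apart from each other, by 6.57-fold. Over all tested genes, the ratio between the libraries of that group had a median of 1.22 and a 95th percentile of 2.13.

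*Ighg1* (chr12:113325240-113330523, minus strand) had 1.86 and 5.22 CPM in WT males, 22.5 and 2.77 in NT-KO males, 0.109 and 0.236 in WT females, and 0.611 and 0.214 in NT-KO females. The male genotypes overlapped, since NT-KO replicate 2 lay between the WT libraries, and the NT-KO libraries differed 8.13-fold. *Ighg2b* (chr12:113302965-113307933, minus strand) had 0.781 and 2.02 CPM in WT males and 13.0 and 3.64 in NT-KO males, and 0.292 and 1.09 in female WT against 0.523 and 0.275 in NT-KO females. Its male genotypes were separate and its female genotypes were not. The library with most *Ighg1* and *Ighg2b* was male NT-KO replicate 1, whereas that with most *Ighm* was male NT-KO replicate 2.

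*Igha* (chr12:113254830-113260236, minus strand) had the lowest CPM of the heavy chain genes among the 9 in all 4 male libraries. Its counts were 29 and 9 in WT males, 79 and 70 in NT-KO males, 47 and 139 in WT females, and 93 and 57 in NT-KO females. In CPM these were 0.515 and 0.212, 1.61 and 1.34, 0.857 and 2.05, and 1.62 and 0.872, so male WT lay below all other libraries and the female genotypes overlapped. *Jchain* (chr5:88519809-88527891, minus strand) had 0.586 and 1.79 CPM in WT males, 5.79 and 6.28 in NT-KO males, 1.57 and 1.08 in WT females, and 0.803 and 0.856 in NT-KO females. The male NT-KO libraries were nearly equal to each other for *Jchain*, and above every other library.

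All 3 surface genes had their highest group mean in female WT. *Cd79a* (chr7:24897381-24902197, plus strand) had 0.497 and 0.282 CPM in WT males, 0.551 and 0.572 in NT-KO males, 2.12 and 1.93 in WT females, and 0.768 and 1.25 in NT-KO females. *Cd79b* (chr11:106311341-106314762, minus strand) had 0.408 and 0.282, 0.428 and 0.725, 1.97 and 2.00, and 0.890 and 1.71 CPM in the same order. *Ms4a1* (chr19:11249675-11266241, minus strand) had 0.213 and 0.188, then 0.204 and 1.03, 1.13 and 0.972, and 0.523 and 0.780 CPM. For all 3, both female WT libraries lay above both male WT libraries and above both female NT-KO libraries. The male genotypes were separate for *Cd79a* and *Cd79b* by narrow margins, at 12 to 28 counts against 27 to 30 for *Cd79a*, and overlapped for *Ms4a1*, where male NT-KO replicate 2 alone was high.

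**Figure D1:**
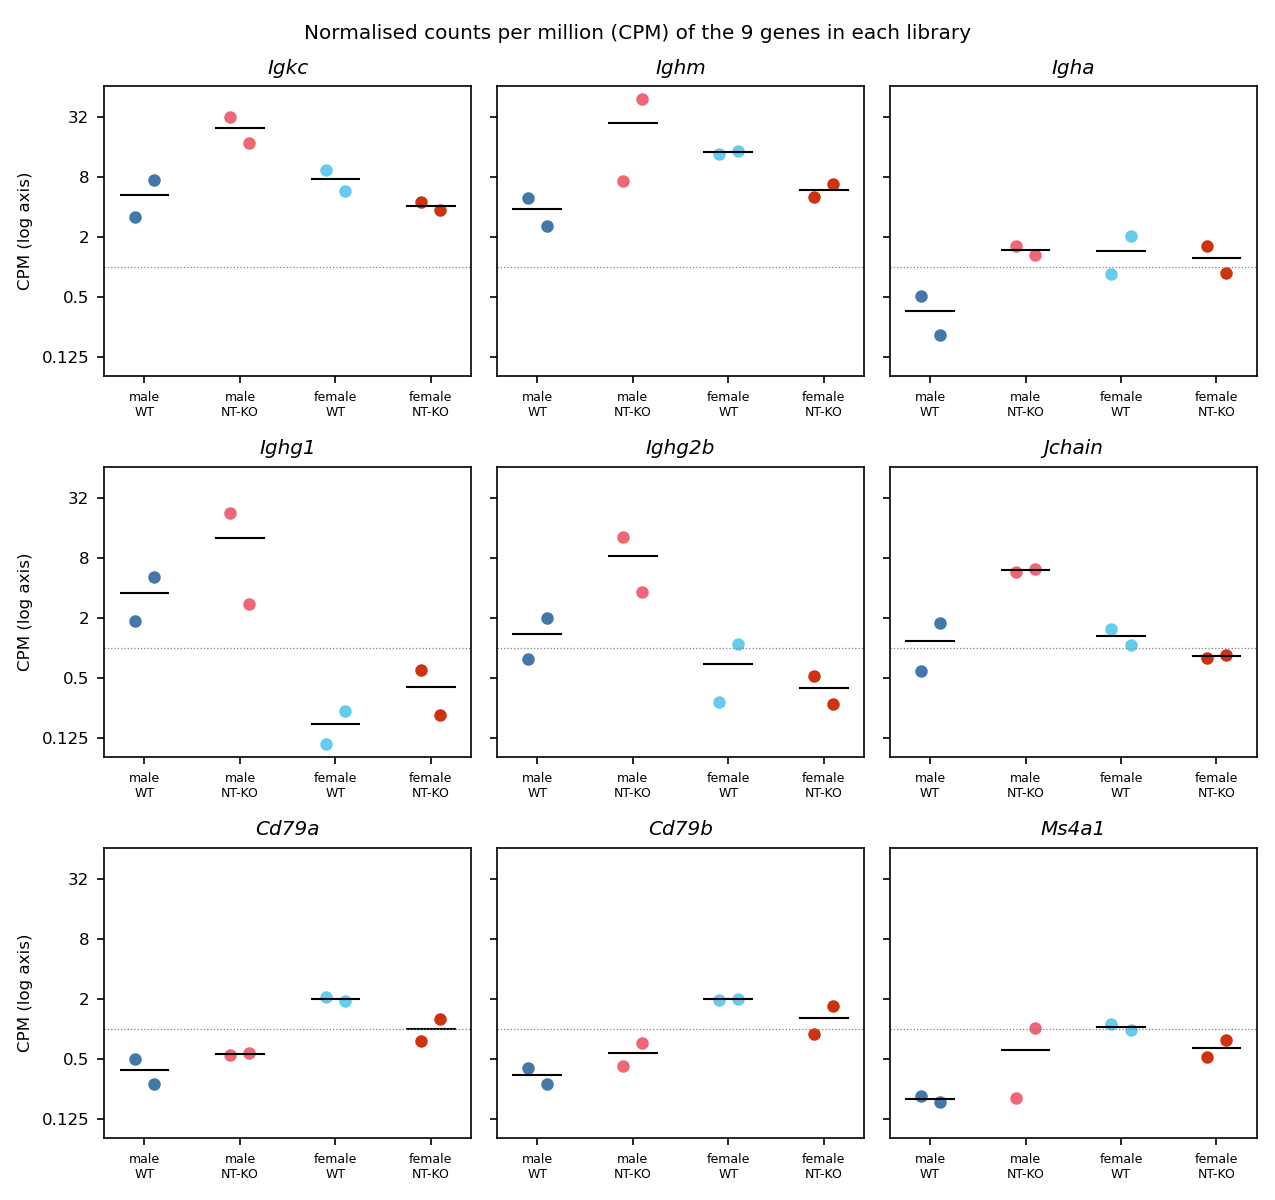
CPM of the 9 genes on a log2 axis (vertical) in the 4 groups (horizontal); points are libraries, black lines are group means of 2 libraries, and the dotted line is 1 CPM. *Igkc* and *Jchain* were highest in both male NT-KO libraries, whereas *Cd79a* and *Cd79b* were highest in both female WT libraries.

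Levels can be set beside each other between genes only per length of transcript, as CPM divided by the length of the exons in kilobases (RPKM). *Igkc* had means of 9.99 ± 5.63 RPKM in WT males, 46.7 ± 19.3 in NT-KO males, 14.3 ± 4.82 in WT females and 7.73 ± 1.09 in NT-KO females (SD, n = 2). *Ighm* followed, with 2.00 ± 0.878, 14.7 ± 15.3, 7.5 ± 0.436 and 3.14 ± 0.691 RPKM. In male NT-KO the next were *Ighg1* at 4.87 ± 5.38, *Ighg2b* at 3.11 ± 2.47 and *Jchain* at 2.40 ± 0.136 RPKM, which did not differ beyond the spread of the libraries. In female WT the next were instead *Cd79b* and *Cd79a*, both at 1.39 RPKM (SD 0.0168 and 0.0901), with *Igha* at 0.544 ± 0.316, *Jchain* at 0.525 ± 0.138 and *Ighg1* at 0.0666 ± 0.0345 RPKM. *Ms4a1* had at most 0.170 RPKM in any group mean, over an exon length that joins all its isoforms.

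The first comparison asked whether the deletion changed these genes in males. The 5 constant genes and *Jchain* had fitted log2 fold changes from 1.84 to 2.87 in NT-KO over WT, and the surface genes had 0.50 to 1.61. By edgeR's quasi-likelihood test, none of the 9 passed a Benjamini-Hochberg false discovery rate (FDR) of 0.05 with an absolute log2 fold change over 1. That test called 2 of all 13117 genes (0.0152%). At an unadjusted p under 0.05, 5 of the 9 were higher and none lower, against 6.03% of all tested genes higher. Over all tested genes the median log2 fold change was 0.01, against 2.29 over the constant genes and *Jchain* and 0.73 over the surface genes.

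The fitted differences in males were largest for *Ighm*, at a log2 fold change of 2.87 ± 0.75 (SE; FDR 0.243), and *Ighg2b*, at 2.58 ± 0.78 (FDR 0.287). *Jchain* stood at 2.36 ± 0.47 (FDR 0.167), *Igkc* at 2.23 ± 0.45 (FDR 0.170), *Igha* at 1.98 ± 0.58 (FDR 0.284) and *Ighg1* at 1.84 ± 0.89 (FDR 0.477). In linear terms *Jchain* was 5.14-fold and *Igkc* 4.68-fold higher. With a library left out, the log2 value of *Jchain* ranged from 1.74 (without male WT replicate 1) to 3.37 (without male WT replicate 2) and that of *Igkc* from 1.73 to 2.96 (without the same libraries). *Ms4a1* had 1.61 ± 0.71 (FDR 0.438), *Cd79b* 0.73 ± 0.46 (FDR 0.591) and *Cd79a* 0.50 ± 0.41 (FDR 0.682). Without male NT-KO replicate 2 the value of *Ms4a1* was 0.01 and that of *Ighm* 0.94. Without male NT-KO replicate 1 *Ighg1* stood at -0.35, and *Ighm*, at 3.66, was called (FDR 0.0375).

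Whether these genes were called depended on the test. edgeR's likelihood ratio test on the same model called *Igkc* and *Jchain* (both FDR 0.000853), *Ighm* (FDR 0.010) and *Igha* (FDR 0.0455), that is 4 of the 9, where it called 1.56% of all tested genes. DESeq2 also called 4, *Igkc* (FDR 2.22e-05), *Jchain* (FDR 0.000137), *Ighg2b* (FDR 0.00621) and *Igha* (FDR 0.0450), with 1.66% of all tested genes called. *Igkc*, *Jchain* and *Igha* were in both sets, and no surface gene was in either. *Ighg2b* had an FDR of 0.0655 in the likelihood ratio test and *Ighm* of 0.0612 in DESeq2. Male NT-KO lay above male WT without overlap for 7 of the 9 genes, all except *Ighg1* and *Ms4a1*, as it did for 19.6% of all tested genes.

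In females the same comparison gave mostly negative values. *Ighm* had a log2 fold change of -1.25 ± 0.70, *Cd79a* of -0.99 ± 0.36, *Igkc* of -0.89 ± 0.44, *Ighg2b* of -0.81 ± 0.85, *Ms4a1* of -0.68 ± 0.61, *Jchain* of -0.66 ± 0.47, *Cd79b* of -0.60 ± 0.40 and *Igha* of -0.22 ± 0.52. *Ighg1* alone was positive, at 1.20 ± 1.22, from 6 and 16 WT counts and 35 and 14 NT-KO counts. None of the 9 was called, and the FDR was 1 for each in the quasi-likelihood test, which called 0.00762% of all tested genes. *Cd79a* had the only unadjusted p under 0.05, at 0.0242 by the quasi-likelihood test, and 0.679% of all tested genes were lower at a p under 0.05. The likelihood ratio test and DESeq2 called none of the 9, with 0.0839% and 0.0381% of all tested genes called. Female NT-KO lay below female WT without overlap for 6 of the 9 genes (*Igkc*, *Ighm*, *Jchain*, *Cd79a*, *Cd79b* and *Ms4a1*), against 14.9% of all tested genes.

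Over both sexes together no member was called, with 0.0152% of all tested genes called, and only *Jchain* had an unadjusted p under 0.05 in edgeR's quasi-likelihood test (log2 fold change 0.85 ± 0.33, FDR 0.888), as did 3% of all tested genes with a higher value. *Ighg1* had the largest value, 1.52 ± 0.75, and *Cd79a* and *Cd79b* stood at -0.24 ± 0.27 and 0.06 ± 0.30. The likelihood ratio test and DESeq2 called none of the 9 here either, where they called 0.29% and 0.297% of all tested genes.

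The difference between the sexes in the NT-KO effect, as log2 fold change in females minus that in males, was negative for all 9 genes. It was -4.12 ± 1.02 for *Ighm*, -3.40 ± 1.14 for *Ighg2b*, -3.11 ± 0.63 for *Igkc* and -3.02 ± 0.66 for *Jchain*. *Ms4a1* had -2.29 ± 0.94, *Igha* -2.20 ± 0.78, *Cd79a* -1.50 ± 0.54, *Cd79b* -1.33 ± 0.61 and *Ighg1* -0.64 ± 1.54. The quasi-likelihood test called none of these at an FDR of 0.05 (FDR 0.573 for *Ighm*, *Igkc* and *Jchain*), and called 0.0152% of all tested genes. At an unadjusted p under 0.05, 7 of the 9 were lower, all except *Ighg1* and *Cd79b*, against 3.67% of all tested genes. The likelihood ratio test called 3, *Igkc* (FDR 0.00214), *Jchain* (FDR 0.00995) and *Ighm* (FDR 0.0186), with 0.351% of all tested genes called. DESeq2 called *Igkc* and *Jchain*, with 0.473% of all tested genes called. NT-KO lay above WT in males and below WT in females, without overlap in either, for *Igkc*, *Ighm*, *Jchain*, *Cd79a* and *Cd79b*, that is 5 of the 9 against 3.8% of all tested genes. None of the 9 had the mirror pattern, which 2.68% of all tested genes had.

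Female and male WT livers differed in the surface genes. *Cd79a* was 5.10-fold higher in females (log2 fold change 2.35 ± 0.39, FDR 0.0173) and *Cd79b* 5.68-fold (2.50 ± 0.45, FDR 0.0212), and both passed the quasi-likelihood test. They were 2 of the 9 genes, where 4.68% of all tested genes were called. Both had passed the filter only through female libraries, the sex where they were high, since neither reached 1 CPM in a male library. *Ms4a1* had a like value, 2.37 ± 0.69, but an FDR of 0.0782. Of the constant genes, *Ighg1* had -4.30 ± 1.13 (FDR 0.0605), *Igha* 1.97 ± 0.58 (FDR 0.0784), *Ighm* 1.90 ± 0.72 (FDR 0.142) and *Ighg2b* -0.98 ± 0.79 (FDR 0.459). *Igkc*, at 0.53 ± 0.44, and *Jchain*, at 0.17 ± 0.47, had the smallest differences. Female WT lay above male WT without overlap for 5 of the 9 genes, against 31.3% of all tested genes, and below it for *Ighg1*, against 30.7%.

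The calls between the WT groups were sensitive to single libraries. Without male WT replicate 2, female WT replicate 1 or female WT replicate 2, neither *Cd79a* nor *Cd79b* was called. Without male WT replicate 1 *Cd79a* was called and *Cd79b* was not. Each of these fits leaves a group with a single library, and each called fewer of all tested genes than the reported fit. With any library left out, the log2 fold change of *Cd79a* ranged from 2.03 to 2.82. That of *Cd79b* ranged from 2.28 to 2.79. The likelihood ratio test and DESeq2 both called *Cd79a*, *Cd79b*, *Ms4a1*, *Igha* and *Ighg1*, with 7.92% and 7.52% of all tested genes called. *Ms4a1* reached 1 CPM in both female WT libraries and otherwise only in 1 male NT-KO library. *Ighg1* reached it only in male libraries. Both thus passed the filter through the sex or group where they were high.

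**Figure D2:**
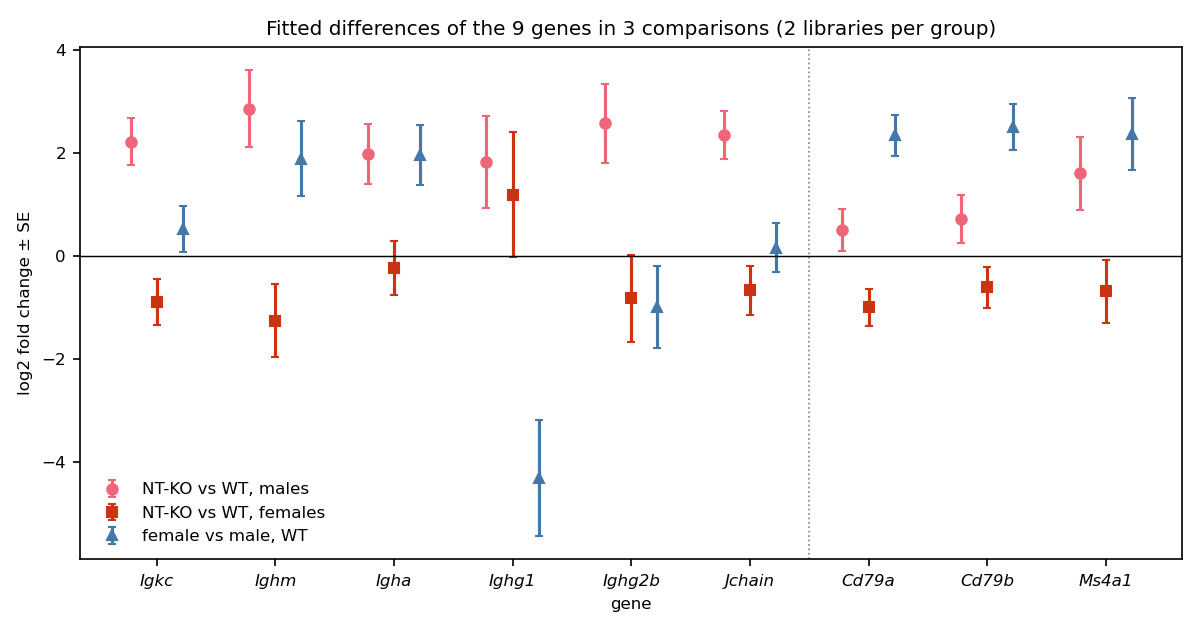
Fitted log2 fold change with its SE (vertical) for the 9 genes (horizontal) in NT-KO against WT males (circles), NT-KO against WT females (squares) and female against male WT (triangles), from edgeR with 2 libraries per group. The constant genes and *Jchain*, left of the dotted line, lay between 1.84 and 2.87 in males, and the surface genes, right of it, lay between 2.35 and 2.50 in the comparison of the sexes.

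The levels of both sets were then set against each other within each library. The score was the mean log2 RPKM of the 5 constant genes and *Jchain* minus that of the 3 surface genes. It was 2.18 and 3.22 in WT males, 4.84 and 3.35 in NT-KO males, 0.05 and 0.62 in WT females, and 1.32 and 0.13 in NT-KO females. All 4 male libraries thus lay above all 4 female libraries. Taken back from these log2 means, the constant genes and *Jchain* stood 4.54 to 28.7 times above the surface genes in males and 1.04 to 2.49 times in females. Such a ratio weighs each gene equally, whatever its level. In summed CPM the constant genes and *Jchain* had 25.8 and 25.0 in WT females and 13.1 and 12.8 in NT-KO females. The surface genes had 5.22 and 4.91, and 2.18 and 3.75, in the same order.

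Both sets entered the differences in score to unlike degrees. Mean scores differed by 1.39 between NT-KO and WT males, with a difference of 2.16 in the constant genes and *Jchain* and of 0.77 in the surface genes. In females the NT-KO and WT libraries overlapped. The difference of their mean scores was 0.38, with -0.40 and -0.79 for the sets, and it was -0.21 without female NT-KO replicate 1. Between WT females and WT males the score differed by -2.37, with a difference of -0.05 in the constant genes and *Jchain* and of 2.32 in the surface genes. The -0.05 is a mean over genes that went opposite ways. Their fitted log2 fold changes were -4.30 for *Ighg1*, -0.98 for *Ighg2b*, 0.17 for *Jchain*, 0.53 for *Igkc*, 1.90 for *Ighm* and 1.97 for *Igha*. With 2 libraries against 2, the smallest two-sided p of an exact permutation test is 0.333, and the score was given no test.

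**Figure D3:**
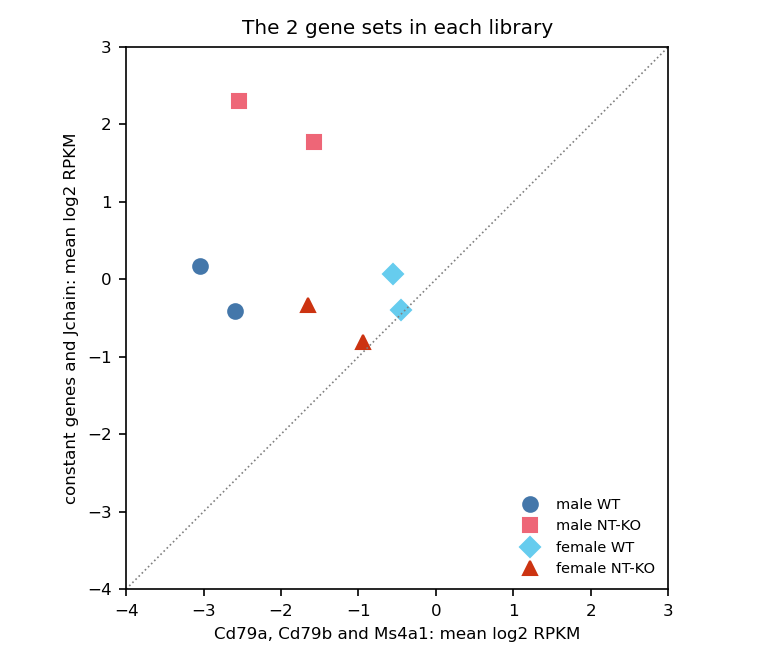
Mean log2 RPKM of the 5 constant genes and *Jchain* (vertical) against that of *Cd79a*, *Cd79b* and *Ms4a1* (horizontal), with a point for each of the 8 libraries and a dotted line where both are equal. The male NT-KO libraries stood at 2.30 and 1.78 on the vertical axis and all others between -0.81 and 0.17.

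Count ratios to *Cd79a* were taken for *Igkc* and *Jchain*. There were 58.3 and 30.7 counts of *Igkc* for each count of *Cd79a* in NT-KO males, 6.43 and 26.3 in WT males, 4.47 and 3.02 in WT females, and 5.89 and 2.95 in NT-KO females. *Jchain* had 10.5 and 11.0 counts for each of *Cd79a* in NT-KO males, 1.18 and 6.33 in WT males, and 0.557 to 1.05 in the 4 female libraries. The signalling partners themselves kept close to each other, with 0.732 to 1.29 counts of *Cd79a* for each of *Cd79b* in the 8 libraries.

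*Ighd*, the constant gene of IgD that naive B cells express together with *Ighm*, is not among the 9 genes and is given beside *Ighm*. Its counts were 27 and 16 in WT males, 26 and 30 in NT-KO males, 144 and 167 in WT females, and 47 and 108 in NT-KO females. *Ighd* was higher in WT females than in WT males (log2 fold change 2.56 ± 0.40, FDR 0.0121) and had 0.36 ± 0.41 (FDR 0.797) in male NT-KO against WT. It passed the filter only through female libraries, with 0.376 to 0.572 CPM in the male ones. The ratio of *Ighm* to *Ighd* was 4.15 to 6.11 in the female libraries, 10.3 and 6.94 in WT males, and 13.8 and 84.1 in NT-KO males.

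The classes of heavy chain differed between libraries of the same group. Of the counts of all 8 heavy chain constant genes, *Ighm* took 56.0% (Wilson 95% interval 51.6 to 60.3) and 22.2% (18.8 to 26.0) in WT males, and 13.8% (12.5 to 15.1) and 80.5% (79.1 to 81.9) in NT-KO males. Its share was 66.2% and 70.2% in WT females and 56.9% and 68.5% in NT-KO females. The 4 IgG genes together took 32.7% (28.8 to 37.0) and 72.8% (68.7 to 76.5) in WT males and 82.2% (80.6 to 83.6) and 16.3% (15.0 to 17.6) in NT-KO males. In females they took 16.8% and 8.08% (WT) or 15.3% and 5.96% (NT-KO). These intervals cover counting error within a library only. Reads copied by PCR are not independent molecules, which makes the intervals too narrow even for that. The male genotypes therefore overlapped in both shares, while the summed heavy chain counts did not, at 498 and 500 in WT males and 2607 and 3132 in NT-KO males.

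*Igha* took 4.18% to 18.5% of the heavy chain counts in the female libraries and 1.80% to 5.82% in the male ones. *Ighg2c*, the IgG gene next to *Ighg2b*, had 11 and 49 counts in WT males, 399 and 159 in NT-KO males, 4 and 21 in WT females, and 7 and 3 in NT-KO females. It followed *Ighg2b*, with a log2 fold change of 3.08 ± 0.85 in NT-KO males (FDR 0.265 by quasi-likelihood, 0.0498 by likelihood ratio and 0.00375 by DESeq2). *Ighg2c* reached 1 CPM only in both male NT-KO libraries and male WT replicate 2. It thus passed the filter through the group where it was high, which limits the reading of these FDRs. With the counts of both genes summed, the value for *Ighg2b* in males became 2.76 (FDR 0.276). *Ighg3* went another way, with 163 counts in female WT replicate 1 and 2 to 15 in each of the other libraries. *Ighe*, the constant gene of IgE, had 0 to 3 counts in every library.

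**Figure D4:**
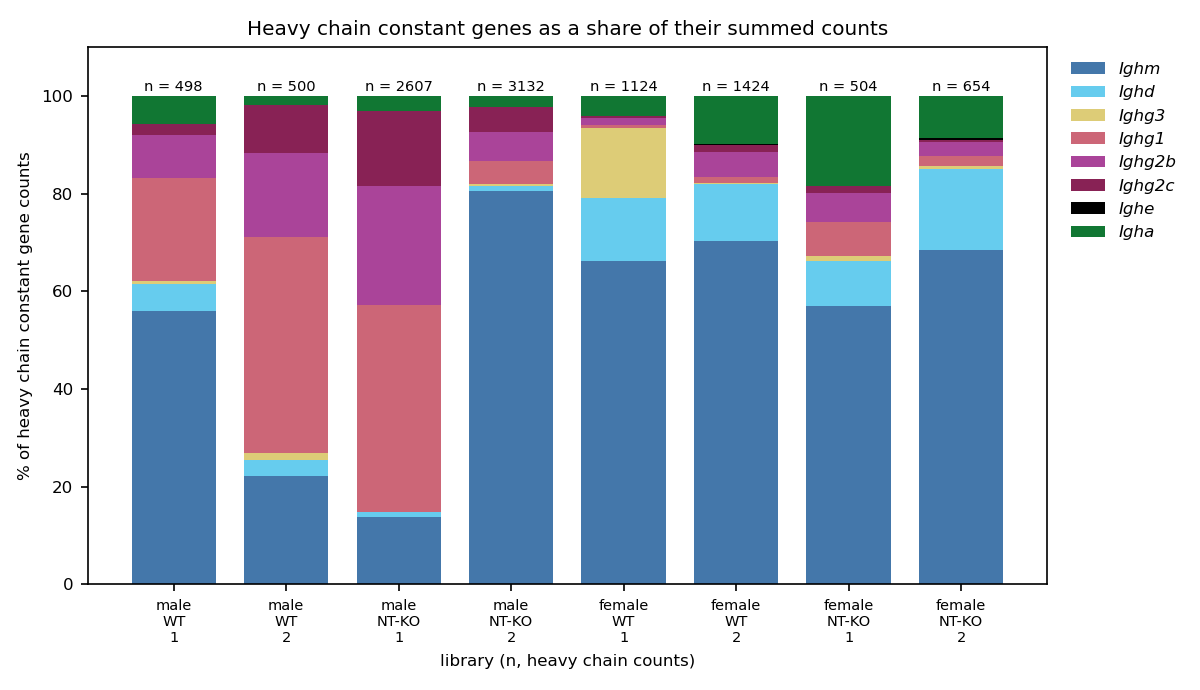
Share of the summed counts of 8 heavy chain constant genes taken by each gene (stacked bars, in %), for the 8 libraries, with the summed count n above each bar. *Ighm* took 80.5% in male NT-KO replicate 2 and 13.8% in male NT-KO replicate 1, where IgG genes took 82.2%.

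Among light chains, the lambda constant genes took 7.69% and 10.5% of the counts in WT males, 4.67% and 10.5% in NT-KO males, 15.4% and 18.9% in WT females, and 13.1% and 21.7% in NT-KO females. All 4 female libraries thus had a larger lambda share than all 4 male libraries. *Iglc2* was the lambda gene with the highest mean CPM, at 7 to 52 counts per library, and was not tested.

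The variable segments, which are counted apart from the constant genes, gave a further readout of antibody RNA. The table holds 218 of them, 178 had a count in at least 1 library, and none reached the level for testing. Their summed CPM was 2.20 and 5.32 in WT males, 19.3 and 15.3 in NT-KO males, 5.47 and 3.57 in WT females, and 2.13 and 2.65 in NT-KO females. Both male NT-KO libraries stood above all others and both female NT-KO libraries below female WT, as for *Igkc*. Kappa segments held 645 and 526 of the counts in NT-KO males, heavy chain segments 284 and 224, and lambda segments 19 and 51.

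The counts were spread over many segments. In male NT-KO 116 and 136 segments had a count, against 60 and 72 in WT males, 73 and 84 in WT females, and 63 and 75 in NT-KO females, at total counts of 948 and 801, 124 and 226, 300 and 242, and 122 and 173. More segments can be seen where more counts are drawn, and this was not corrected. The most counted segment differed between the male NT-KO libraries. It was *Igkv6-25* in replicate 1, with 59 counts or 6.22% (Wilson 95% interval 4.86 to 7.95), and 5 counts in replicate 2. In replicate 2 it was *Igkv3-2*, with 77 counts or 9.61% (7.76 to 11.9), and 6 counts in replicate 1. *Igkv10-96*, the segment with most counts over all libraries, had 39 and 26 counts in NT-KO males and 2 to 15 in the others, *Iglv1* had 15 and 31 in NT-KO males and up to 18 elsewhere, and *Igkv1-110* had 15 and 27.

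Other genes of B cells were read from lists. Of 19 B cell receptor co-receptors and signalling genes, 11 were tested. In male NT-KO against WT, 9 of these had positive and 2 negative values, with a median log2 fold change of 0.40. The quasi-likelihood test called none of them, and the likelihood ratio test called *Cd37*, a tetraspanin (1.18 ± 0.27, FDR 0.207 and 0.0299). The latter test called 1.56% of all tested genes. *Cd22*, an inhibitory receptor, had 1.12 ± 0.35 (FDR 0.297). In female NT-KO against WT, 8 were negative and 3 positive and none was called, with *Cd37* at -0.77 ± 0.25 (FDR 1). Between female and male WT the quasi-likelihood test called *Cd22* (2.65 ± 0.34, FDR 0.00485) and *Cd37* (1.86 ± 0.27, FDR 0.00944), both higher in females. *Lyn*, *Syk* and *Blnk*, the most abundant of this list, also serve in other cells and were not called in any comparison.

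Of 7 B cell transcription factors, *Bach2* and *Pou2f2* were tested and neither was called. The precursor genes *Dntt* and *Vpreb3* had log2 fold changes of 2.25 ± 0.57 (FDR 0.0570) and 2.01 ± 0.69 (FDR 0.110) in female against male WT. Neither was called by the quasi-likelihood test, and the likelihood ratio test called both, as it did 7.92% of all tested genes. Among male libraries *Vpreb3* reached 1 CPM only in NT-KO replicate 1, at 1.18 CPM.

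Of genes with high levels in plasma cells, those that could be tested had mostly lower values in NT-KO males. Of 13 in the list, 7 were tested, and the rest were too low for a fitted value. In male NT-KO against WT 2 of the 7 were positive and 5 negative, with a median of -0.87. The quasi-likelihood test called none of these, and the likelihood ratio test called 2 as lower, against 97 of all 13117 tested genes. The most abundant were *Xbp1*, a transcription factor of the secretory pathway, *Txndc5* and *Sdc1*, which liver cells also express. *Xbp1* had 467 and 322 CPM in WT males, 241 and 191 in NT-KO males, 198 and 217 in WT females, and 203 and 206 in NT-KO females. *Fkbp11*, a secretory pathway gene, was the 1 gene of the list that the quasi-likelihood test called in any comparison, and was lower in WT females than in WT males (-2.55 ± 0.45, FDR 0.0208). All 12 listed chaperones of the endoplasmic reticulum were also negative in male NT-KO against WT, at a median of -1.25. Whether the values of both lists have a shared cause was not tested.

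Antibody receptors had smaller fitted values in males than the constant genes and *Jchain*. *Pigr*, which carries polymeric antibody across epithelia, had 658 to 998 CPM in the 8 libraries and log2 fold changes of 0.13 ± 0.21 in males and 0.14 ± 0.21 in females. *Fcgrt*, the neonatal receptor for IgG, had 0.24 ± 0.20 and -0.04 ± 0.20. *Fcgr2b*, the inhibitory IgG receptor, had 0.62 ± 0.23 (unadjusted quasi-likelihood p 0.0252, FDR 0.364) and -0.11 ± 0.22. Of 9 cytokines and chemokines that act on B cells, *Cxcl12* and *Cxcl13* were tested and neither was called by the quasi-likelihood test in any comparison. *Cxcl13*, which draws B cells into follicles, had 1.88 ± 0.46 in female against male WT (FDR 0.0525). *Bcl6* and *S1pr2*, the tested germinal centre genes, are also expressed outside B cells and were not called by the quasi-likelihood test.

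Markers of other blood cells were read beside these results. The summed CPM of 12 T lymphocyte markers was 3.87 and 5.15 in WT males, 5.10 and 5.08 in NT-KO males, 11.1 and 8.84 in WT females, and 5.46 and 6.70 in NT-KO females. It followed the surface genes of B cells in being highest in WT females. Of the 4 tested, the quasi-likelihood test called *Trbc2* (2.21 ± 0.37, FDR 0.0174) and *Lck* (1.40 ± 0.33, FDR 0.0464) higher and *Cd4* lower (-1.53 ± 0.36, FDR 0.0475) in female against male WT. The 6 leucocyte markers summed to 22.8 and 36.9 CPM in WT males, 35.1 and 31.7 in NT-KO males, 51.3 and 50.3 in WT females, and 35.9 and 44.2 in NT-KO females. *Cd52* (1.35 ± 0.21, FDR 0.0127) and *Coro1a* (1.39 ± 0.23, FDR 0.0174) among them were higher in WT females. The quasi-likelihood test called none of the genes in either list between genotypes, and their part in the values of the B cell genes was not tested.

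Natural killer markers summed to 0.649 to 1.22 CPM in the 4 male libraries and 2.13 to 3.96 in the 4 female ones. The 10 Kupffer cell markers had 224 and 340 CPM in WT males, 376 and 287 in NT-KO males, 429 and 437 in WT females, and 398 and 472 in NT-KO females, with none called by the quasi-likelihood test. Neutrophil markers ranged from 3.07 to 10.1 CPM and dendritic cell markers from 1.47 to 2.76. The 6 hepatocyte markers stood at 74319 to 108656 CPM with overlap between all groups.

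Markers of red cells and chaperones of the endoplasmic reticulum were highest in WT males. The 7 erythroid markers summed to 953 and 444 CPM in WT males, 374 and 371 in NT-KO males, and 171 to 319 in the 4 female libraries. The quasi-likelihood test called *Alas2*, *Hbb-bt*, *Hbb-bs* and *Hba-a1* among them lower in WT females than in WT males. The 12 chaperones summed to 3835 and 8292 CPM in WT males and 2169 to 2868 in the other 6 libraries. *Hspa5*, the main chaperone of that compartment, had a log2 fold change of -2.02 ± 0.46 in male NT-KO against WT (FDR 0.210). None of the 12 was called between genotypes by the quasi-likelihood test and 6 were called lower in males by the likelihood ratio test. That test called 97 of all 13117 tested genes lower in males. *Hyou1* and *Pdia6* were lower in WT females than in WT males. Male WT replicate 2 thus stood apart for the chaperones and male WT replicate 1 for the erythroid markers. Without male WT replicate 2, *Igkc* and *Jchain* in male NT-KO against WT had log2 fold changes of 2.96 and 3.37 (FDR 0.208 and 0.080), and without male WT replicate 1 they had 1.73 and 1.74 (FDR 0.219 and 0.132). The part of these lists in the values of the immunoglobulin genes was not tested.

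**Figure D5:**
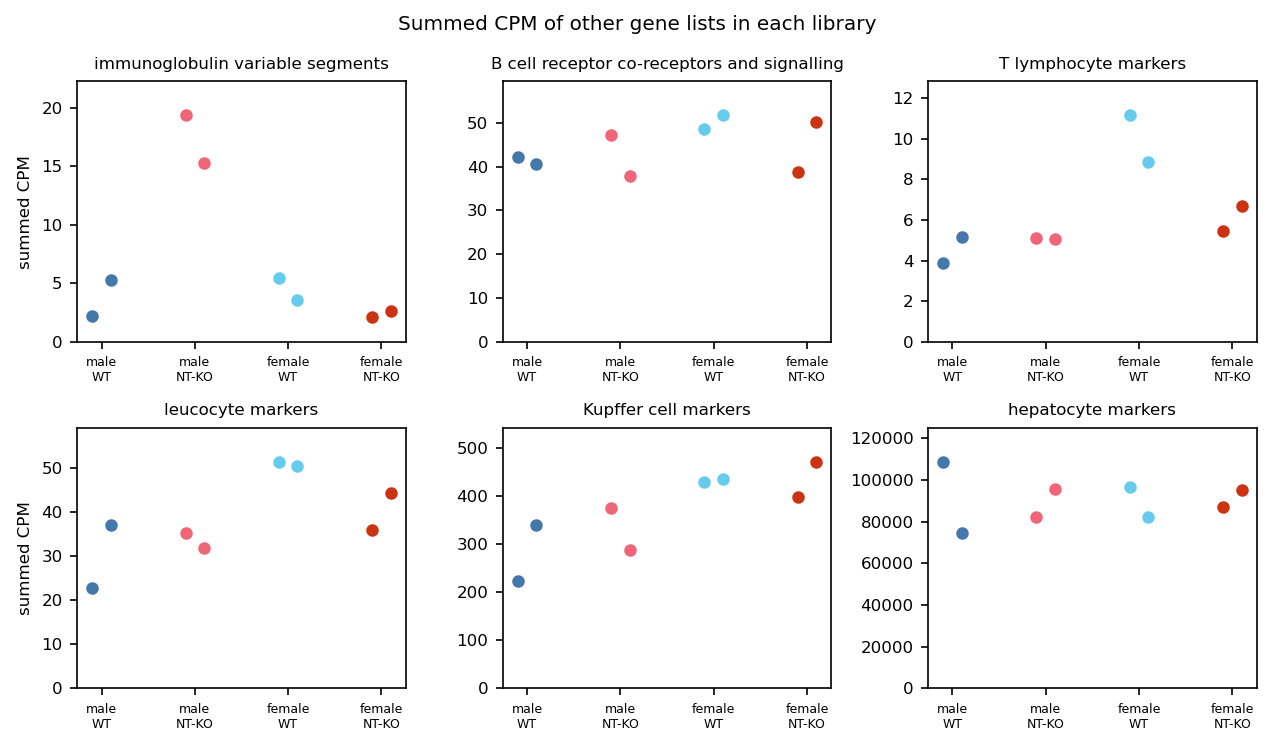
Summed CPM of 6 gene lists (vertical, from 0) in the 4 groups (horizontal), with a point for each library. Variable segments were highest in NT-KO males, at 19.3 and 15.3 CPM, T lymphocyte markers in WT females, at 11.1 and 8.84 CPM, and hepatocyte markers overlapped between groups.

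Profiles over the 8 libraries were compared by the root mean square distance between log2 CPM values, each gene centred on its own mean. The tested gene nearest to *Igkc* was *Jchain*, at 0.33 on the log2 scale. The nearest genes outside the 9 were *Ppp1r9a*, *Gm12247*, *Col25a1*, *Adrb3* and *Pkdrej*, at 0.50 to 0.52. Genes near *Cd79a* included *Ighd* at 0.18, *Caprin2* at 0.23 and *Cd79b* at 0.26, and *Gimap3* and *H2-Ob*, both at 0.27. *Cd79a* and *Igkc* were 1.52 apart, but the constant genes were not close to each other either. *Igkc* was 1.90 from *Ighg1*, 1.22 from *Ighm*, 1.21 from *Igha* and 1.06 from *Ighg2b*. *Ighm* was 2.84 from *Ighg1*, and 1.17 and 1.16 from *Cd79a* and *Cd79b*. For *Ighm* the nearest of the 9 was *Ms4a1*, at 0.80. These distances describe 8 libraries that share their groups and carry no test.

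Upstream sequence was at hand for *Jchain* and *Cd79a*, a gene from each set with unlike profiles. The sequences are from RefSeq on GRCm38.p6, and capitals mark matches to the motifs searched.
Jchain, chr5:88527898-88528147, minus strand: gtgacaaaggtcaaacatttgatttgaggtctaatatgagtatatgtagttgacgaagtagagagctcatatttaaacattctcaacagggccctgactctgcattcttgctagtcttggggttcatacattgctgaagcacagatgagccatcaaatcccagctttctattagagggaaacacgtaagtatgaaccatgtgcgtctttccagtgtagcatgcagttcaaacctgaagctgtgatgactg
Cd79a, chr7:24897247-24897380, plus strand: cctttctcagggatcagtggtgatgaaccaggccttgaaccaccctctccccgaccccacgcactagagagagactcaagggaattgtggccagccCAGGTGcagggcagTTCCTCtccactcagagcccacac
The motifs, searched on both strands over 250 bases before each RefSeq start, were the octamer ATTTGCAT of immunoglobulin promoters, CCCNNGGG for EBF1, GAGGAA for PU.1 and the E-box CAGGTG. They occurred in 1.6%, 11.8%, 23.3% and 17.2% of the windows of all genes in the RefSeq table. The 134 bases of *Cd79a*, which stop where its annotated gene begins, held the E-box and, on the other strand, the PU.1 letters, and the 250-base *Jchain* window held none of the 4. A match describes these letters only.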

How the data were processed

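Liver RNA (TruSeq RNA kit) was sequenced from 8 libraries, 2 for each sex and genotype. Per the labels and methods, the authors trimmed reads with cutadapt, aligned them to GRCm38 with STAR 2.6.1a and assigned them to Ensembl genes with featureCounts. The deposited values are these raw counts, with 0 columns left unused here. The strand setting and the handling of multi-mapping reads are not given in the sources used here. Of 49671 IDs, 49412 matched GENCODE vM21 (GRCm38).

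Genes that reached 1 CPM in 2 or more libraries, other than rRNA, miRNA and mitochondrial genes, were tested (13117). *Cd79a*, *Cd79b*, *Ighd*, *Cd22*, *Trbc2* and *Lck* passed through female libraries alone and *Cd4*, *Ighg1* and *Ighg2c* through male ones. *Ms4a1* and *Vpreb3* reached 1 CPM in only 1 male library. The calls of these genes between the sexes, and those of *Ighg2c* between male genotypes, are to be read with that limit. Fits used R 4.3.3 and edgeR 4.0.16 (TMM, quasi-likelihood test, a mean for each of 4 groups, no replicate block) on all 8 libraries, with Benjamini-Hochberg adjustment. A gene was called where its FDR did not exceed 0.05 and its log2 fold change exceeded 1 in size, or the FDR alone for the difference between the sexes. The SE is the log2 fold change divided by the square root of F. Log2 CPM had a prior count of 2. The model was tested on simulated data.

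The members and the lists were chosen with earlier results of these data known. Beside the 9 members, the text names the 3 genes with the highest mean CPM in each of the other lists and up to 5 called ones, the 5 variable segments with most counts, the 5 nearest profiles to *Igkc* and to *Cd79a*, and *Lbr*, *Xist* and *Ddx3y* as checks. A gene that this rule also names is not reported here. *Ighg3*, *Ighe* and *Gm43218* were named after their values were seen. Lists were described by counts and medians, with no set test. Alternatives were the likelihood ratio test, DESeq2 1.42.0, other scalings and filters, robust dispersion, a replicate block, an FDR of 0.01, no minimum fold change, the 4 compared libraries alone, and each library left out. Summing *Ighg2b* and *Ighg2c* was added after seeing the data.

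Replicate numbers did not pair libraries. The deviations of same-numbered WT and NT-KO libraries from their group means had correlations across genes of -0.0066 in males and 0.0231 in females.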

Additional observations from a re-analysis of the deposited data

Results flagged for a closer look

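For 5 genes both NT-KO libraries lay above both WT libraries in males and below both in females. The difference between the sexes (female minus male, log2) was -3.11 for *Igkc*, -4.12 for *Ighm*, -3.02 for *Jchain*, -1.50 for *Cd79a* and -1.33 for *Cd79b*. The quasi-likelihood test of this difference called none of them, at FDRs of 0.573, 0.573, 0.573, 0.656 and 0.691. The likelihood ratio test called *Igkc*, *Ighm* and *Jchain* (FDR 0.00214, 0.0186 and 0.00995) and not *Cd79a* or *Cd79b* (FDR 0.436 and 0.681). Such a pattern was found in 3.8% of all tested genes, and the mirror pattern in 2.68%.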

How the results depend on the processing

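In males the number of members called was 0 in the reported fit, 4 by the likelihood ratio test, 4 by DESeq2 and 7 with no filter beyond 1 count, a setting that called 667 of 29724 genes. With single libraries left out it was 0 to 1, the 1 being *Ighm* without male NT-KO replicate 1. In females and over both sexes it was 0, and 1 in each with no filter, where 172 and 205 of 29724 genes were called. For the difference between the sexes it was 0, with 3 by the likelihood ratio test, 2 by DESeq2 and 6 with no filter (552 of 29724 genes). In WT females against males it was 2, with 0 at an FDR of 0.01, 5 by the likelihood ratio test, 5 by DESeq2, 6 with no filter (1736 of 29724 genes), 5 with the 4 compared libraries alone (533 of 12749 genes), and 0 to 5 with a library left out. Where that leaves a group with 1 library, it is assumed to vary like the others. The number of all tested genes called also changed between these fits. Signs turned with single libraries left out, which gave these lowest and highest values. In males *Ighg1* ranged from -0.35 (without NT-KO replicate 1) to 2.76. In females *Igha* ranged from -0.74 to 0.54 (positive without WT or NT-KO replicate 2) and *Ighg2b* from -1.45 to 0.44 (positive without WT replicate 2). Over both sexes *Ighm* ranged from -0.15 to 1.21 and *Ms4a1* from -0.33 to 0.83, both negative without male NT-KO replicate 2. *Cd79b* ranged from -0.21 to 0.26 and was negative without replicate 2 of male WT, male NT-KO or female NT-KO. In the difference between the sexes *Ighg1* ranged from -1.56 to 1.56 and was positive without male NT-KO replicate 1 or female WT replicate 2. In WT females against males *Jchain* ranged from -0.45 to 1.17 and was negative without replicate 1 of either group. The score of constant genes and *Jchain* against surface genes ranged from 0.64 to 2.14 in males, from -0.21 to 0.98 in females and from -2.89 to -1.85 between the WT sexes. The causes were not tested. With the replicate number as a block, 0 members were called in males, in females, over both sexes and for the difference between the sexes, and no call changed (*Igkc* in males 2.27, FDR 0.228). No paired analysis was possible for the sexes in WT because the block pairs libraries within a sex. Depth limits the surface genes, at 8 to 136 counts per library.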

Other observations

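A few single libraries held high counts of 1 antibody gene. *Ighg3* took 14.5% of the heavy chain counts in female WT replicate 1 (Wilson 95% interval 12.6 to 16.7) and 0.281% in female WT replicate 2, a 50.4-fold difference in CPM. In the same library the variable segment *Gm43218* had 50 counts, or 16.7% of all variable segment counts (12.9 to 21.3), the largest share of any segment in a library. In the other 7 libraries the most counted segment took 4.62% to 9.61%. The joining segments had 14 rows in the table and summed to 0.0941 to 0.592 CPM, with 0.592 and 0.515 in male NT-KO. Of the 19 diversity segments, 18 had no count in any library.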
